A study of Mus musculus with 6 samples.

Results

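The unfolded protein response and the chaperones of the endoplasmic reticulum were examined through 36 genes in tumours of the mouse lung adenocarcinoma line 344SQ, sorted by their CD133 level into a high and a low fraction. The genes were fixed by name: 7 sensors and signalling genes, 15 chaperones and folding enzymes, 9 genes of endoplasmic reticulum degradation and 5 genes of protein translocation. All 36 were measured, of 18193 genes in all, each read at the brightest of the probe sets that match no other gene. The line stems from a mouse of genotype KrasLA1/+; p53R172HdelG/+ and was injected under the skin of syngeneic mice, so cells of the host, whose own genotype and age the labels do not give, can be among those sorted. Both fractions share this line and site, no treatment is named, and CD133, the product of Prom1, is the only sorting marker stated. Each fraction was hybridised to 3 Affymetrix arrays. Whether the 3 are separate tumours is not stated in the labels, and the p-values therefore measure the spread between these arrays alone, which may be technical.

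Proteins that enter the secretory pathway fold in the endoplasmic reticulum with the help of chaperones and enzymes that form disulfide bonds. When unfolded protein accumulates there, the membrane sensors IRE1, PERK and ATF6 signal to the nucleus. They raise chaperones and degradation components and, through PERK and ATF4, restrain translation. Cells that secrete much protein, such as plasma cells, hold this machinery at a high level, and tumour cells engage it under hypoxia and nutrient shortage.

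ATF6 and XBP1 act on many of these genes through the ER stress response element, written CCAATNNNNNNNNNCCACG, which was searched on both strands. Of the 36 genes, 31 had a RefSeq promoter window, which runs from 250 bases before to 50 bases after a transcription start on GRCm38.p6. In 9 of the 31 (29.0%) a window held the element, against 37 of 27025 genes of the whole table (0.137%). By role these were 7 of 13 chaperones, 2 of 8 degradation genes, 0 of 6 sensors and signalling genes and 0 of 4 translocation genes. Among 104 further genes of the pathway with a window, 1 held it, Ero1b. A shorter second element, ATTGG, any 1 base, then CCACG, was found on either strand in 2 of the 31 (6.45%), Dnajb11 and Herpud1, neither of which holds the first, against 12 of 27025 (0.0444%). Neither TGACGTGG, the unfolded protein response element, nor TGATGNAAT, an amino acid response element, was found in any of the 31, against 0.714% and 1.08% of the table, and both were searched on both strands. The members were listed as genes of this response, so their larger shares of the ER stress response element and of the shorter second element are no independent result.

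The next 4 stretches lie before the start of the 4 members with the element that had the smallest p between the fractions. They run 5′ to 3′ on the gene's strand, and capitals mark the fixed letters of the element, which appear as CGTGG and ATTGG where it lies on the opposite strand.
Derl3, chr10:75893227-75893275, plus strand, 171 to 123 bases before the start: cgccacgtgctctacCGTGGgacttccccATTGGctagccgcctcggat
Creld2, chr15:88819505-88819553, plus strand, 141 to 93 bases before the start: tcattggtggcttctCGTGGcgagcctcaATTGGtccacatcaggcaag
Hsp90b1, chr10:86705518-86705671, minus strand, 227 to 74 bases before the start: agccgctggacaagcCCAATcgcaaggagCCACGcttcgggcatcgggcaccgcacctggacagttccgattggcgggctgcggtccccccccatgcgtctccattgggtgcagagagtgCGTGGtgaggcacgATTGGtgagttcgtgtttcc
Pdia6, chr12:17266476-17266524, plus strand, 113 to 65 bases before the start: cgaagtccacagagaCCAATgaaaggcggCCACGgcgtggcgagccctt
Hsp90b1 alone among the 9 held 2 copies, 1 on each strand. The other 5 members held 1 copy each, printed here on the strand of the element to show the bases between its fixed letters, which is the plus strand except in Canx.
Hspa5, chr2:34772025-34772043: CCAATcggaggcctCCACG
Calr, chr8:84847075-84847093: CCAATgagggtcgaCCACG
Canx, chr11:50325800-50325818: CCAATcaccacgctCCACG
Dnajc3, chr14:118937827-118937845: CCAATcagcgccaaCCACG
Syvn1, chr19:6046532-6046550: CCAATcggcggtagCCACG

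The arrays of the CD133 high fraction were not alike. CD133 high replicate 1 had a mean Spearman rho across probe sets of 0.973 with the CD133 low arrays and 0.931 with the other CD133 high arrays, so the counts of calls and the leading genes are also given without it. Leaving out the CD133 high array most like the CD133 low arrays favours larger differences and smaller p-values in advance. The calls without it are therefore no independent check. The bacterial hybridisation controls averaged 9.94 to 10.28 on the CD133 low arrays, 10.18 on CD133 high replicate 1, and 11.05 and 10.81 on the other two. For Gapdh, the control at the 3' end minus that in the middle of the transcript was −0.09 to −0.07 for CD133 low, and −0.13, 0.44 and 0.46 for CD133 high replicates 1, 2 and 3. Prom1 averaged 6.61 ± 0.203 for CD133 high and 5.82 ± 0.294 for CD133 low (SD, n = 3 each; limma, adjusted p = 0.297), with no overlap of the arrays. The carcinoma genes Epcam (10.20 to 10.86), Cdh1 (12.28 to 12.52) and Krt8 (12.26 to 12.95) were bright on all 6 arrays. The club cell gene Scgb1a1 lay between 0.80 and 4.50 on them. Some other genes of the same carcinoma and lung epithelial list of 12 were dimmer, such as Nkx2-1 (6.41 to 7.68) and Cldn4 (7.01 to 7.77). In 2 of the 12, Cldn4 and Cldn7, every CD133 high array lay below every CD133 low array, and in 1, Krt8, above. The CD133 high mean minus the CD133 low mean was −0.42 for Cldn4, −0.73 for Cldn7 and 0.41 for Krt8. None of the 12 passed an adjusted p of 0.05 in limma.

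The median chaperone and degradation gene stood lower in the CD133 high fraction (−0.49 and −0.59), although no single member passed the test over all probe sets. The median of the 7 sensors and signalling genes was 0.00, and −0.16 without CD133 high replicate 1. With the mean of the probe sets of each gene, the medians of chaperones and degradation genes were smaller in size, as given below. The lowest differences were those of Derl3 (−2.58), Creld2 (−2.03), Pdia4 (−1.87), Edem1 (−1.76) and Manf (−1.52), given here and below in log2 units as the CD133 high mean minus the CD133 low mean. None of the 36 members passed an adjusted p of 0.05 in limma, where 0.253% of all genes did (0.231% lower and 0.022% higher), and the smallest adjusted p was 0.0737, that of Derl3. At an unadjusted p under 0.05, 14 members were lower and 1 was higher, against 9.94% and 8.3% of all genes. In 15 members every CD133 high array lay below every CD133 low array, and in 1 above, against 12.8% and 10.8% of all genes. The median difference of the 36 was −0.17, and that of all genes was 0.00. A difference of −1 or below was seen in 5 members, against 5.13% of all genes. Because whole fractions were measured, fewer cells of a type and less RNA per cell cannot be told apart.

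**Figure D1:**
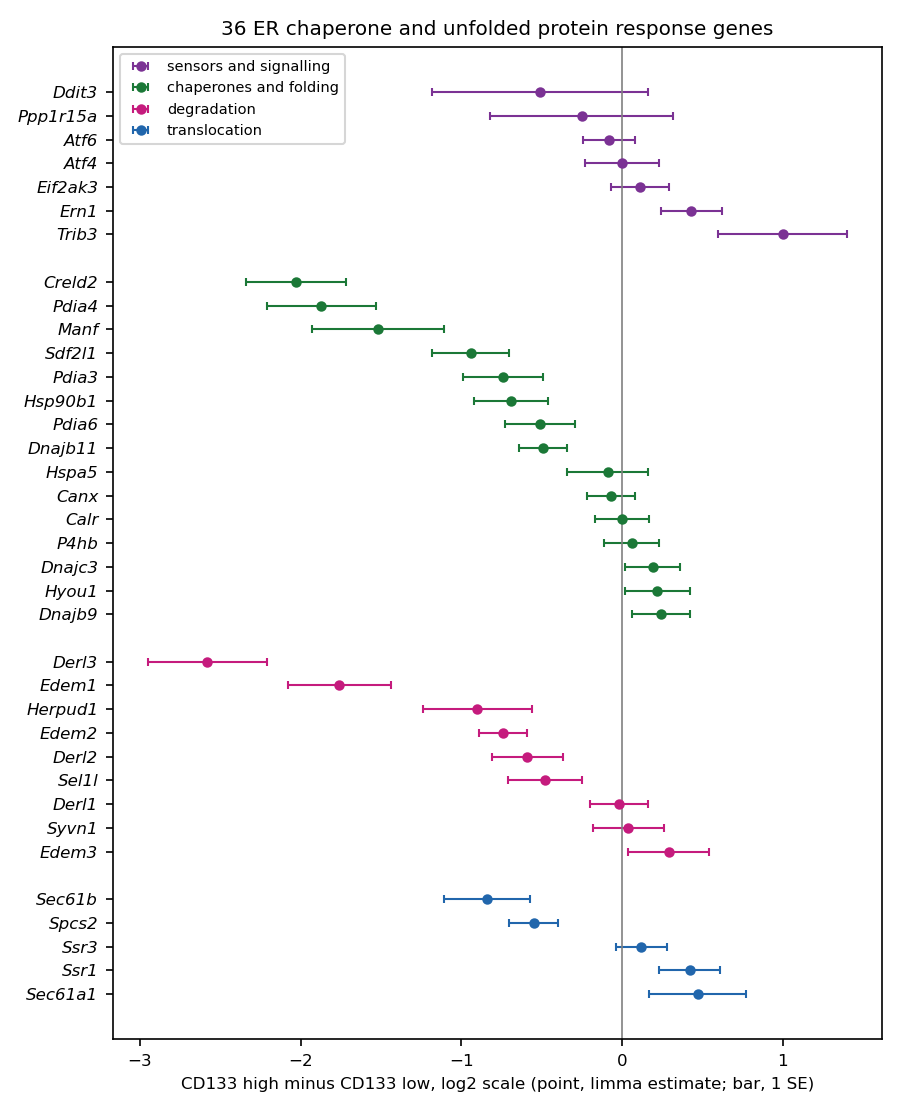
Difference between the fractions (log2 units, CD133 low mean subtracted from CD133 high mean) for each of the 36 genes, coloured by role, with bars of 1 standard error from limma. Derl3, Creld2, Pdia4, Edem1 and Manf lie farthest to the left, Trib3 farthest to the right at 1.0, and the sensors and signalling genes lie on both sides of 0.

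None of the 3 sensors had an unadjusted p under 0.05. Ern1 encodes IRE1, the kinase and ribonuclease that splices Xbp1 mRNA. Its log2 values, here and below in the order of replicates 1, 2 and 3, were 9.31, 9.46 and 9.76 for CD133 low and 9.72, 9.88 and 10.21 for CD133 high. The CD133 high values overlapped the CD133 low ones, with a difference of 0.43 (SE 0.19, adjusted p = 0.334, limma). Eif2ak3 encodes PERK, the kinase that phosphorylates the translation factor eIF2 alpha. Its values were 9.80, 9.47 and 9.94 against 9.88, 9.67 and 9.98 in the CD133 high fraction, which overlap throughout (0.11, SE 0.18, adjusted p = 0.771, limma). Atf6, the membrane-bound factor released by cleavage in the Golgi, differed by −0.08 (SE 0.16), and its dimmer probe sets by −0.28 and −0.18. Without CD133 high replicate 1, the first of those dimmer probe sets was lower by a called difference of −0.64 (adjusted p = 0.0376, limma). Xbp1, the target of IRE1 and no member, lay at 13.15, 13.06 and 13.16 in the CD133 low and 13.22, 13.06 and 12.87 in the CD133 high fraction (−0.07, SE 0.17, adjusted p = 0.841, limma); its splicing was not measured.

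Ddit3 and Ppp1r15a, which act downstream of PERK, differed among the CD133 high arrays, and Trib3 did not share their layout. Ddit3 encodes CHOP, a transcription factor that accompanies prolonged stress. Its CD133 low values were close together at 9.80, 9.69 and 9.68, whereas the CD133 high values were 10.92, 8.52 and 8.20. Replicate 1 thus lay above the CD133 low arrays and replicates 2 and 3 below them, with a difference of −0.51 (SE 0.67, adjusted p = 0.709, limma). Without replicate 1, Ddit3 was lower by a called difference of −1.36 (adjusted p = 0.00428). Ppp1r15a, the phosphatase subunit GADD34 that reverses eIF2 alpha phosphorylation, had the same layout, with 11.53, 10.77 and 11.37 for CD133 low and 12.33, 10.15 and 10.45 for CD133 high (−0.25, SE 0.57, adjusted p = 0.834, limma). Atf4, the transcription factor that PERK signalling induces through translation, had values of 11.92, 11.71 and 11.87 against 12.31, 11.70 and 11.49. The fractions overlapped in Atf4, and the difference was 0.00 (SE 0.23). The summed level of the neutrophil markers, the log2 of their summed unlogged values, was laid out like Ddit3 and Ppp1r15a. It was 15.17 to 15.40 for CD133 low and 15.81, 14.91 and 14.29 for CD133 high. Of the single markers, S100a9, Cxcr2, Mmp8 and Ngp had this layout, and S100a8, Csf3r, Mmp9 and Camp did not. The part of neutrophils in the values of Ddit3 and Ppp1r15a was not tested. A dimmer probe set of Atf4 was laid out like Ddit3, with 10.68, 10.28 and 10.57 for CD133 low and 11.16, 9.19 and 9.57 for CD133 high (−0.54, SE 0.49). Without CD133 high replicate 1, this probe set of Atf4 was lower by a called difference of −1.13 (adjusted p = 0.0119, limma).

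Trib3, a pseudokinase induced by ATF4 and CHOP, was the only member whose CD133 high arrays all lay above the CD133 low arrays. Its values were 7.46, 7.42 and 6.59 in the CD133 low fraction and 7.56, 8.90 and 8.02 in the CD133 high fraction. The lowest CD133 high array, replicate 1, lay close above the highest CD133 low array, and the difference was 1.0 (SE 0.40, adjusted p = 0.311, limma). A dimmer probe set of Trib3 differed by −0.14.

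**Figure D2:**
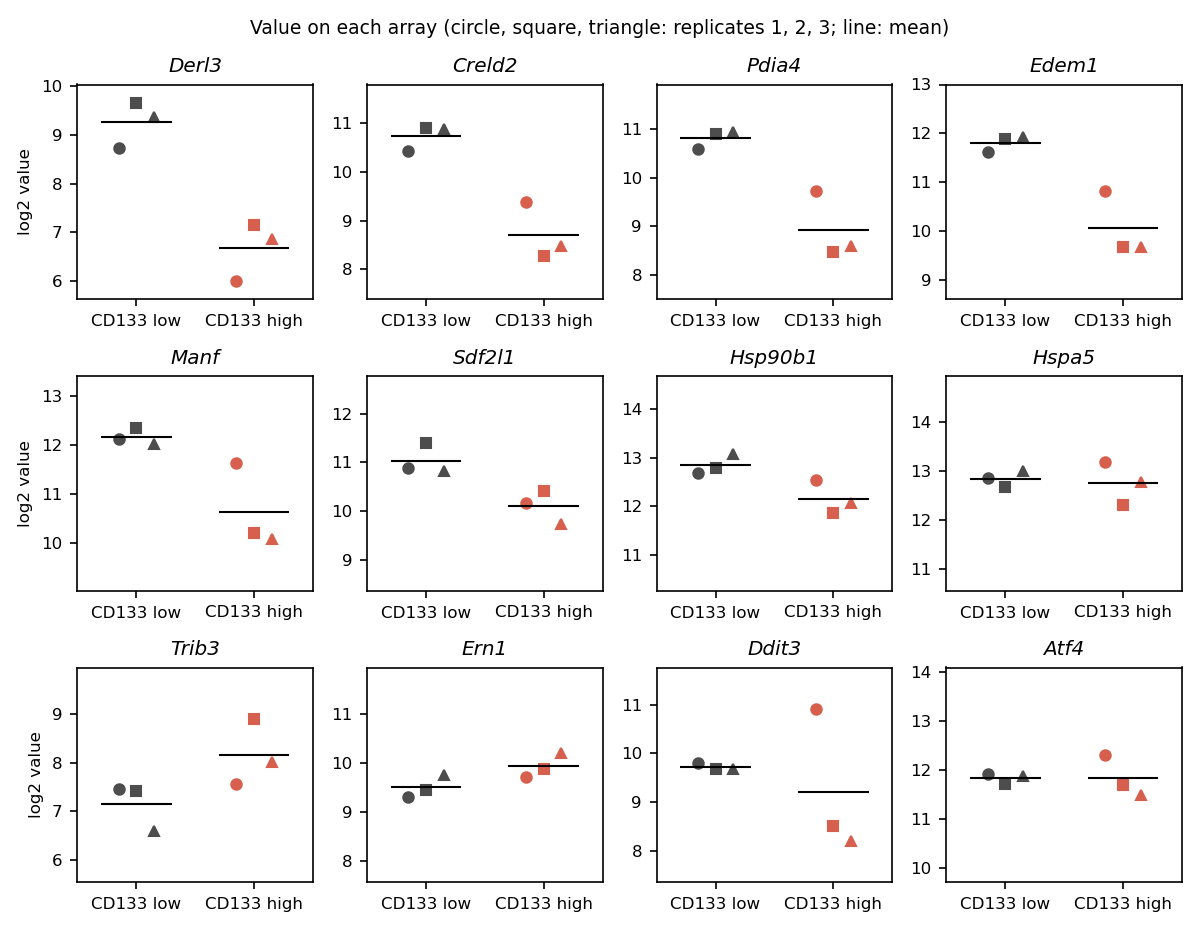
Log2 value on each array for 12 genes, with CD133 low arrays in grey, CD133 high arrays in red, a symbol for each replicate and a line at the mean of 3 arrays; every panel spans the same height. Derl3, Creld2, Pdia4 and Edem1 show no overlap of the fractions, whereas Ddit3 and Atf4 have CD133 high replicate 1 above and the other CD133 high arrays at or below the CD133 low arrays.

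Among the 15 chaperones and folding enzymes, 11 had a difference below 0, against 49.8% of all genes, and the median was −0.49. At an unadjusted p under 0.05, 7 were lower and 0 higher, against 9.94% and 8.3% of all genes, and in 8 the CD133 high arrays lay entirely below, against 12.8%. Creld2, a disulfide isomerase-like protein that is induced by endoplasmic reticulum stress, gave values of 10.43, 10.89 and 10.88 for CD133 low and 9.37, 8.28 and 8.47 for CD133 high. All CD133 high values lay over 1 unit below the lowest CD133 low value, and the means were 8.70 ± 0.583 and 10.74 ± 0.261 (SD, n = 3 each), a 4.08-fold difference (SE 0.31 on the log2 scale, adjusted p = 0.0859, limma). Creld2 passed without CD133 high replicate 1 (−2.36, adjusted p = 0.00247), and its adjusted p lay between 0.00247 and 0.513 across the alternatives.

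Pdia4, the disulfide isomerase ERp72, was at 10.58, 10.90 and 10.93 in the CD133 low fraction and at 9.73, 8.48 and 8.59 in the CD133 high fraction. The fractions did not overlap, and CD133 high replicate 1 lay between the CD133 low arrays and the other CD133 high arrays. The difference was −1.87 (SE 0.34, adjusted p = 0.14, limma) and −2.27 without replicate 1 (adjusted p = 0.00172). Manf, a protein retained in the endoplasmic reticulum and secreted under stress, had values of 12.11, 12.34 and 12.02 against 11.62, 10.20 and 10.08. Its fractions did not overlap either, with a difference of −1.52 (SE 0.41, adjusted p = 0.282, limma) that became −2.02 without replicate 1 (adjusted p = 0.00189).

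Sdf2l1, which forms a chaperone complex with Dnajb11, differed by −0.94 (SE 0.24, adjusted p = 0.275, limma). Its values were 10.89, 11.40 and 10.83 for CD133 low and 10.17, 10.41 and 9.74 for CD133 high, without overlap. Here CD133 high replicate 1 did not stand between the fractions: it was 0.87 below the CD133 low mean, and replicate 2 was 0.63 below. Dnajb11 itself, a J-domain partner of BiP, differed by −0.49 (SE 0.15) with tight replicates, an SD of 0.166 in the CD133 high and 0.0501 in the CD133 low fraction. Pdia3, the isomerase ERp57 that works with calnexin and calreticulin, differed by −0.74, and Pdia6 by −0.51, each without overlap.

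Hsp90b1, the Hsp90 of this compartment, had values of 12.69, 12.79 and 13.08 against 12.55, 11.86 and 12.07 in the CD133 high fraction. These do not overlap, and the difference was −0.69 (SE 0.23, adjusted p = 0.297, limma). Hspa5, the Hsp70 BiP that holds the sensors inactive, was at 12.85, 12.67 and 13.00 against 13.19, 12.30 and 12.77. Its highest and its lowest value were both on CD133 high arrays, and the difference was −0.09 (SE 0.25, adjusted p = 0.873, limma). Its next probe set gave −0.43 (SE 0.39), and −0.87 without CD133 high replicate 1 (adjusted p = 0.0326, limma), whereas the dimmest gave 0.01. The difference between Hspa5 and Hsp90b1 was not tested. The lectin chaperones Calr and Canx differed by 0.00 (SE 0.17) and −0.07 (SE 0.15), and P4hb, protein disulfide isomerase, by 0.06 (SE 0.17). The BiP co-chaperones Dnajb9 and Dnajc3 and the nucleotide exchange factor Hyou1 differed by 0.24, 0.19 and 0.22, with overlapping arrays in each.

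Of the 9 degradation genes, 7 had a difference below 0, with a median of −0.59. At an unadjusted p under 0.05, 5 were lower and 0 higher, against 9.94% and 8.3% of all genes, and in 5 the CD133 high arrays lay entirely below, against 12.8%. Derl3 encodes a derlin, a membrane protein through which misfolded proteins leave the endoplasmic reticulum, and is known for its expression in secretory cells. Its values were 8.74, 9.66 and 9.36 in the CD133 low fraction and 6.0, 7.15 and 6.87 in the CD133 high fraction. The lowest of all 6 was CD133 high replicate 1, and the fractions did not overlap. With means of 9.25 ± 0.468 and 6.67 ± 0.602 (SD, n = 3 each) the difference was 5.98-fold (SE 0.37 on the log2 scale, adjusted p = 0.0737, limma). Without replicate 1 it was −2.24 (adjusted p = 0.00756), and its adjusted p lay between 0.00756 and 0.439 across the alternatives. The related derlins Derl1 and Derl2 differed by −0.02 (SE 0.18) and −0.59 (SE 0.22). The 4 probe sets of Derl1 disagreed, with differences from −0.61 to 0.26. Without CD133 high replicate 1, a dimmer one was called lower (−0.87, adjusted p = 0.00949, limma) and another higher (0.53, adjusted p = 0.0188, limma). Derl2 values were 10.32, 10.45 and 10.10 for CD133 low and 10.07, 9.72 and 9.32 for CD133 high, so that replicate 1 lay close under the CD133 low range (adjusted p = 0.303, limma).

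Edem1 and Edem2, mannosidase-like proteins that mark misfolded glycoproteins for disposal, both stood lower in the CD133 high fraction at their brightest probe sets. Edem1 values were 11.61, 11.89 and 11.93 against 10.81, 9.67 and 9.68, with no overlap and a difference of −1.76 (SE 0.32, adjusted p = 0.144, limma). Without CD133 high replicate 1 the difference was −2.14 (adjusted p = 0.00162). Edem2 values were 9.84, 9.91 and 10.01 against 9.39, 9.02 and 9.13, again with no overlap (−0.74, SE 0.15, adjusted p = 0.189, limma). Their relative Edem3 differed by 0.29 (SE 0.25), in the other direction. A dim second probe set of Edem2, with means of 2.97 for CD133 low and 4.32 for CD133 high, differed by 1.35 (SE 0.73).

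In the Hrd1 ubiquitin ligase complex, which tags the exported proteins, Syvn1 encodes the ligase, Sel1l its adaptor and Herpud1 a scaffold. Syvn1 differed by 0.04 (SE 0.22). Sel1l differed by −0.48 (SE 0.23) without overlap, with CD133 high replicate 1 lowest at 10.06 and replicates 2 and 3 at 10.70 and 10.71 against 10.74 to 11.17. Herpud1 differed by −0.90 (SE 0.34, adjusted p = 0.304, limma), with replicate 1 at 11.80 among the CD133 low arrays (11.80 to 12.08) and replicates 2 and 3 at 10.46 and 10.74.

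**Figure D3:**
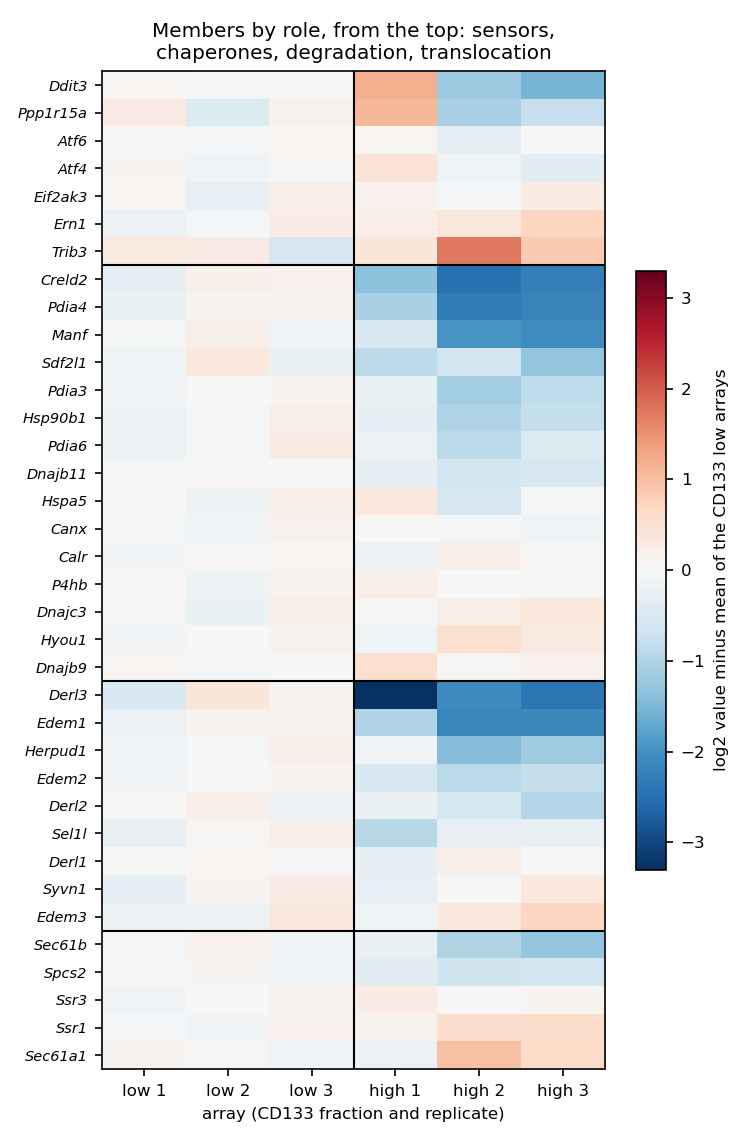
Log2 value of each of the 36 genes on each array, minus the mean of the CD133 low arrays, in colour from blue (below) to red (above), ordered by role and then by difference. CD133 high replicates 2 and 3 are alike, with medians over the 36 genes of −0.43 and −0.30, and CD133 high replicate 1, with −0.19, is nearest to the CD133 low arrays in Creld2, Pdia4, Edem1 and Manf but the farthest from them in Derl3 (−3.26) and Sel1l (−0.91).

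Translocation genes did not move together. Sec61b, the beta subunit of the channel through which new proteins enter, had values of 12.68, 12.83 and 12.62 against 12.46, 11.72 and 11.43. The fractions did not overlap (−0.84, SE 0.27, adjusted p = 0.297, limma). Spcs2, a subunit of the signal peptidase, had values of 11.55, 11.67 and 11.49 against 11.21, 10.90 and 10.95, likewise without overlap (−0.55, SE 0.15, adjusted p = 0.291, limma). Sec61a1, the pore-forming subunit of the same channel as Sec61b, was instead at 11.88, 11.84 and 11.65 against 11.59, 12.75 and 12.42. CD133 high replicate 1 was the lowest array and replicates 2 and 3 the highest, for a difference of 0.47 (SE 0.30, adjusted p = 0.448, limma). Ssr1, of the translocon-associated protein complex, was at 11.86, 11.79 and 12.04 against 12.00, 12.47 and 12.48, with replicate 1 within the CD133 low range (0.42, SE 0.19, adjusted p = 0.332, limma). Ssr3 of the same complex differed by 0.12 (SE 0.16).

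Leaving out CD133 high replicate 1 changed the count of calls. In limma 14 members were then lower and 2 higher at an adjusted p under 0.05, against 14.6% and 11.7% of all genes. By role, those lower at the brightest probe set were 6 of 15 chaperones, 5 of 9 degradation genes, 2 of 5 translocation genes and, of the 7 sensors and signalling genes, Ddit3 alone. The 2 higher were Sec61a1 (0.80, adjusted p = 0.0179) and Ssr1 (0.58, adjusted p = 0.023). In the same limma fit 2 dimmer probe sets of Sec61a1 were called lower, by −1.38 (adjusted p = 0.00405) and −0.64 (adjusted p = 0.0361). Sec61a1 was thus called in both directions, and so were dimmer probe sets of Derl1, whereas the dimmer probe sets of Ssr1 were not called. With CD133 high replicate 1 alone, the spread comes from the CD133 low arrays only, and since 0.0% of all genes passed in limma, the 0 members called say nothing about them. The median over the chaperones was −0.20 on CD133 high replicate 1, −0.63 on replicate 2 and −0.46 on replicate 3. For degradation genes it was −0.30, −0.57 and −0.78, and for sensors and signalling genes 0.40, −0.14 and −0.01. The part of the hybridisation controls and of the Gapdh 3' excess, which set replicates 2 and 3 apart in the same way, was not tested beyond a fit with the hybridisation controls as a covariate, in which Derl3 alone of the members passed (−3.46, adjusted p = 0.0229).

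Probe sets of the same gene often disagreed. Of the 36 members, 27 had several probe sets of their own, 87 in all for the 36, and none of the 87 passed in limma (0.182% of all probe sets did), while 22 had an unadjusted p under 0.05 (15.7% of all). In 19 of the 27 they had differences of both signs, against 58.6% of all genes with several probe sets, and in 9 they spanned over 1 unit, against 34.2%. Sec61a1 had 6 probe sets. Its brightest gave 0.47 and the next −1.0, with values of 11.69, 11.69 and 11.52 for CD133 low and 11.40, 10.41 and 10.10 for CD133 high. Thus replicates 2 and 3 were the highest arrays on 1 probe set of Sec61a1 and the lowest on another. The brightest probe set of Dnajc3 gave 0.19 and the next −1.08. For Edem1 the values were −1.76 and −0.32, for Herpud1 −0.90 and −0.10, for Derl2 −0.59 and 0.54, and for Pdia4 −1.87 and 0.23, the last from a probe set that stood at 5.65 on average in the CD133 low fraction. Differences of Sel1l ran from −0.94 to 0.51 over 5 probe sets. Hsp90b1 and Spcs2 gave the same sign at both of their probe sets, with −0.69 and −1.08 for Hsp90b1 and −0.55 and −0.60 for Spcs2. Derl3, Creld2, Manf, Sdf2l1, Dnajb11 and Sec61b had 1 probe set each, counting only those assigned to a single gene, and probe sets shared between genes were not examined.

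**Figure D4:**
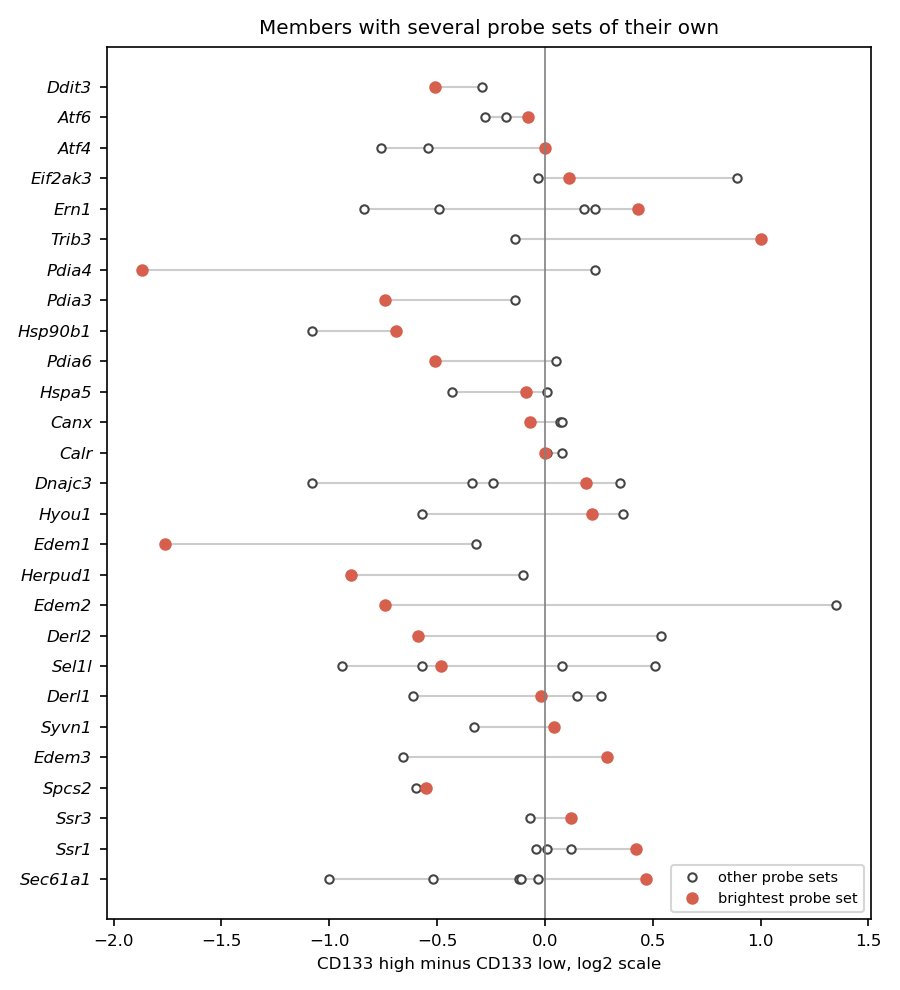
Difference between the fractions (log2 units, CD133 low mean subtracted from CD133 high mean) at every probe set of the 27 members with several, with the brightest probe set in red, the others open, and a grey line over their range. Pdia4 has the widest range, 2.10, and the 6 probe sets of Sec61a1 run from −1.0 to 0.47.

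Members with and without the ER stress response element overlapped in their differences. The 9 members that hold it had a median difference of −0.09 and ran from −2.58 (Derl3) to 0.19 (Dnajc3), and the 22 others with a promoter window had a median of −0.48 and ran from −1.87 (Pdia4) to 1.0 (Trib3). Derl3 and Creld2, shown above with the element, were among the lowest, whereas Hspa5, Calr, Canx and Syvn1, which also hold it, differed by −0.09, 0.00, −0.07 and 0.04. This is a description of the letters in these windows and of no binding.

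Other genes of the pathway were read from lists of 131 genes, of which 125 had a probe set of their own. None passed in limma, where 27 were lower and 8 higher at an unadjusted p under 0.05, against 9.94% and 8.3% of all genes. Their median was −0.28. Among folding genes 11 of 37 were lower and 3 higher, among degradation genes 8 of 26 lower and 1 higher, and among translocation and transport genes 8 of 36 lower and 1 higher. Among 26 signalling genes 0 were lower and 3 higher. The counts of higher genes in the 125 and in the folding list are no larger than those shares of all genes would give. The smallest p belonged to Sec11c, a catalytic subunit of the signal peptidase that also holds Spcs2, at 11.95, 12.31 and 12.07 against 10.97, 10.34 and 9.97. The fractions of Sec11c did not overlap (−1.69, SE 0.27, adjusted p = 0.103, limma). Fkbp11, a prolyl isomerase of secretory cells, followed with 8.88, 9.50 and 9.05 against 7.95, 7.95 and 7.66, again without overlap (−1.29, SE 0.21, adjusted p = 0.104, limma), though the mean of its probe sets differed by 0.08. Traf2, the adaptor that binds activated IRE1, was the highest of these at 6.75, 6.71 and 6.22 against 7.73, 7.58 and 7.62 (1.09, SE 0.21, adjusted p = 0.168, limma). Erp44, which retains client proteins in the early secretory pathway, was at 11.08, 11.19 and 11.09 against 10.59, 10.12 and 10.19 (−0.82, SE 0.17, adjusted p = 0.187, limma).

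Lymphocyte markers differed between the same arrays. Of 17 listed B and plasma cell genes 14 were measured, and 0 were listed at 0 on any array. At an adjusted p under 0.05 in limma 3 were lower (Cd79a, Cd79b and Ms4a1), against 0.231% of all genes. The B-cell genes Cd22, Blk and Pax5 differed by −0.22, 0.11 and 0.07, with overlapping arrays in each. The summed level of the 14 was 15.49 to 15.65 for CD133 low, and 13.95, 14.76 and 14.68 for CD133 high replicates 1, 2 and 3, on the log2 scale. Of genes outside the 36, Mzb1, a chaperone-like protein of the endoplasmic reticulum in B and plasma cells, was at 12.02, 12.46 and 12.22 against 8.22, 10.15 and 9.53. Pou2af1, a B-cell coactivator, was at 11.50, 11.70 and 11.66 against 7.62, 9.98 and 9.48. In both, as in Derl3, CD133 high replicate 1 was the lowest array, whereas in Creld2, Pdia4 and Edem1 it was the highest of its fraction. Jchain, which joins immunoglobulin polymers, stood at 11.28 on replicate 1 and 13.07 and 12.97 on replicates 2 and 3, against 13.35 to 13.67. Irf4, a regulator of plasma cells, was at 9.03, 9.42 and 9.61 against 7.96, 7.23 and 7.57, with no overlap and with replicate 1 the highest of its fraction (−1.77, SE 0.25, adjusted p = 0.0699, limma). The plasma cell regulator Prdm1 and the surface antigens Sdc1 and Tnfrsf17 differed by −0.12, −0.09 and −0.12. Of 16 T and natural killer cell genes 14 had a difference below 0, and Cd8a and Cd4 did not. Cd4 lay between 1.18 and 3.55 on all 6 arrays, near the bottom of the scale. At an adjusted p under 0.05 in limma 5 of the 16 were lower, against 0.231% of all genes. Cd8b1 was 1 of these 5 (−2.42, adjusted p = 0.0186, limma). The list of 16 had a summed level of 13.27 to 13.55 for CD133 low and 12.32, 11.74 and 11.61 for CD133 high. Mast cell genes had a summed level of 12.93 to 13.17 against 12.52, 11.68 and 11.58. Of these 8 genes 6 had a difference below 0. The others, Ms4a2 and Kit, differed by 1.36 and 0.19, and in Ms4a2 the CD133 high arrays all lay above. In the summed levels of both lists CD133 high replicate 1 was the highest of its fraction, as in Creld2, Pdia4 and Edem1. Macrophage genes had summed levels of 16.05 to 16.13 for CD133 low, 16.18 on CD133 high replicate 1 and 16.03 on replicate 3, with replicate 2 the lowest of the 6. Endothelial genes had 11.22 to 11.53 against 11.17 to 11.63, fibroblast and pericyte genes 15.80 to 15.93 against 15.83 to 16.22, and carcinoma and lung epithelial genes 14.47 to 14.66 against 14.35 to 14.79. The part of these cells in the lower level of the chaperone and degradation genes was not tested.

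**Figure D5:**
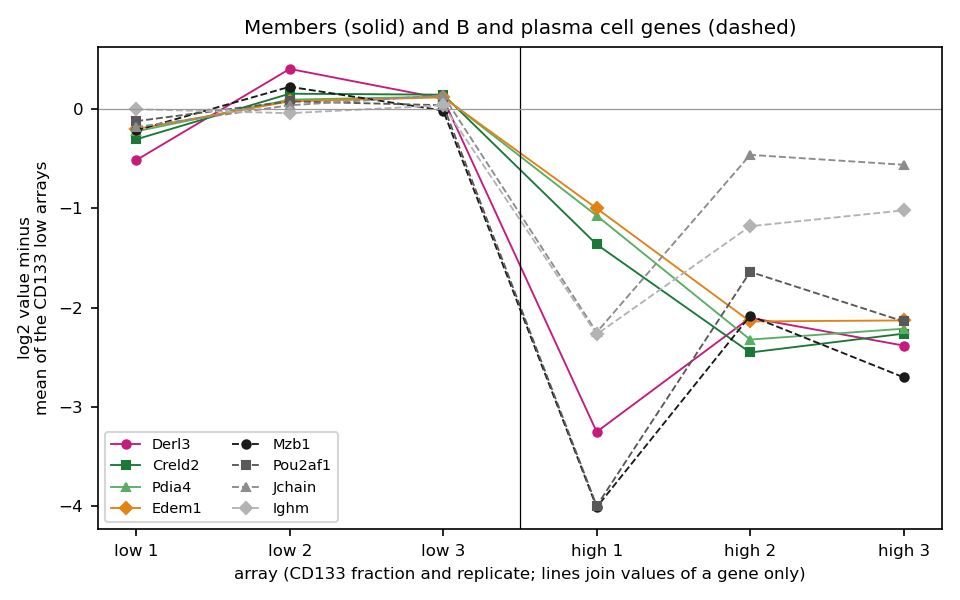
Log2 value on each array minus the mean of the CD133 low arrays, for Derl3, Creld2, Pdia4 and Edem1 (solid) and the B and plasma cell genes Mzb1, Pou2af1, Jchain and Ighm (dashed). On CD133 high replicate 1 Derl3 lies at −3.26 with the dashed lines at their lowest, whereas Creld2, Pdia4 and Edem1 are at −1.37, −1.07 and −1.0 there and lower on replicates 2 and 3.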

How the data were processed

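The deposited table holds 1 value for each of 45101 probe sets on 6 arrays, on a log2 scale as judged from the deposited values themselves. The sources used here do not say how the authors summarised or normalised their probes. The 64 control probe sets were left out, which leaves 45037. Probe sets were named from the array platform's annotation, and each of 18193 genes was read at the brightest (mean of all 6 arrays) of the probe sets that match no other gene. In limma 3.58.1 (R 4.3.3), lmFit and eBayes compared CD133 high with CD133 low, with a variance trend and Benjamini-Hochberg adjustment over the 45037 probe sets, two-sided, with a threshold of 0.05. A floor meant for linear values was not needed. The number of arrays limits the precision. With 3 arrays a side, the smallest two-sided p of an exact permutation test is 0.1, and no such test was run. Replicates were numbered in accession order. No pair of arrays shared more than 702 identical values, so all 6 were kept as separate samples. The steps were tested on simulated data. The members and lists were chosen with earlier results of these data known. Array values are printed for up to 4 members per role with the smallest p, for Hspa5, Hsp90b1, Ddit3, Atf4 and Xbp1, and for up to 4 further pathway genes with the smallest p. Other array values, genes and second probe sets were chosen after their values were seen. Promoter windows came from RefSeq on GRCm38.p6, and 6 listed genes were matched through older symbols in RefSeq. The alternatives were other scalings, a filter and a floor on dim values, other variance models, array weights, the hybridisation controls as a covariate, other choices of probe set, a threshold of 0.1, CD133 high replicate 1 alone, and leaving out each array in turn.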

Additional observations from a re-analysis of the deposited data

How the results depend on the processing

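Of 36 members, 17 kept the sign of their difference under all 16 alternatives and 19 did not, and none of the differences with a changed sign passed in limma. The count of members lower at an adjusted p under 0.05 was 0; it was 2 with equal 75th percentiles, without the dimmest 50% of probe sets, with the mean of probe sets and at a threshold of 0.1, 1 with hybridisation controls as covariate and 14 with array weights. The first 2, the mean of probe sets and the threshold of 0.1 gave 1 chaperone (Creld2) and 1 degradation gene (Derl3), the covariate 1 degradation gene, and array weights 7, 5 and 2 chaperones, degradation and translocation genes. The share of all genes called in each of these fits is not given here, so these counts are no result about the members. Array weights counted CD133 high replicate 1 least, at 0.248, against 0.756 to 2.67 for the other arrays. Leaving that array out altogether called 14.6% of all genes lower. Lower members at an unadjusted p under 0.05 were 7 with the covariate against 14. Those higher, 1 in the main comparison, were 0 with values below 5 set to 5, without a variance trend, with the mean of probe sets and without _s_at and _x_at probe sets, 2 with the covariate, 4 with array weights and 4 with CD133 high replicate 1 alone. The median of the 36 was −0.40 without _s_at and _x_at probe sets. With the covariate, the medians of sensors and signalling genes, chaperones and translocation genes were 0.30, −0.19 and −0.25. With CD133 high replicate 1 alone those of sensors and signalling genes, chaperones, degradation and translocation genes were 0.40, −0.20, −0.30 and −0.20. With the mean of probe sets, those of chaperones, degradation and translocation genes were −0.23, −0.18 and −0.22, and translocation genes had −0.07 without _s_at and _x_at probe sets. Leaving out each array in turn, the members called lower ranged from 0 to 14 and higher from 0 to 2, those at an unadjusted p from 9 to 17 and from 0 to 6, and the median from −0.32 to −0.11. By role, those called lower were 0 to 1 sensors and signalling genes, 0 to 6 chaperones, 0 to 5 degradation genes and 0 to 2 translocation genes. Those called higher were 0 to 2 translocation genes. All counts of members above 0 at an adjusted p came from leaving out CD133 high replicate 1. The shares of all genes at an unadjusted p under 0.05 in the alternative fits are not given here either. The unadjusted counts of members in those fits are therefore no result about the members.

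Changes of sign were as follows. With CD133 high replicate 1 alone they were Atf4 0.48, Atf6 0.08, Ddit3 1.20, Ppp1r15a 1.10, Hspa5 0.35, Canx 0.0043, Hyou1 −0.15, Edem3 −0.13, Syvn1 −0.26, Sec61a1 −0.20 and Xbp1 0.10. With the hybridisation controls as a covariate they were Atf4 0.48, Atf6 0.15, Ddit3 1.11, Ppp1r15a 1.30, Hspa5 0.48, Canx 0.03, Hyou1 −0.17, Syvn1 −0.24, Sec61a1 −0.25 and Xbp1 0.09. The mean of probe sets gave Ern1 −0.10, Calr 0.03, Canx 0.03, Dnajc3 −0.22, Edem2 0.31, Edem3 −0.18, Syvn1 −0.14, Sec61a1 −0.22 and Fkbp11 0.08. Leaving out _s_at and _x_at probe sets gave Trib3 −0.14, Canx 0.07, Syvn1 −0.33, Derl1 0.26, Ssr3 −0.07 and Fkbp11 0.71. Quantile normalization gave Atf4 0.09, Hspa5 0.04, Calr 0.10, Canx 0.08, Derl1 0.09 and Xbp1 0.04, and array weights Calr 0.07, P4hb −0.01 and Derl1 0.05. Leaving out each array gave ranges that cross 0 for Atf4 (−0.24 to 0.17), Atf6 (−0.16 to 0.04), Ppp1r15a (−0.93 to 0.16), Hspa5 (−0.30 to 0.14), Eif2ak3 (−0.03 to 0.21), Calr (−0.08 to 0.09), P4hb (−0.03 to 0.11), Syvn1 (−0.12 to 0.19), Derl1 (−0.13 to 0.12) and Xbp1 (−0.16 to 0.02). Apart from the change of probe set itself, the cause of these shifts was not tested. No paired analysis was possible because the labels number no replicates. Signal near the bottom of the scale limits the dim second probe sets of Pdia4, Edem2 and Ern1.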

Other observations

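Further stress-induced genes, chosen after their values were seen, had the layout of Ddit3 and Ppp1r15a on the CD133 high arrays. Sesn2, a stress-induced regulator of the growth kinase mTORC1, stood at 9.49 on CD133 high replicate 1 and at 8.06 and 7.32 on replicates 2 and 3, against 8.44 to 9.0 on the CD133 low arrays. Ero1a, the oxidase that recharges protein disulfide isomerase and is also induced by hypoxia, stood at 12.75, 10.32 and 10.61 against 11.19 to 11.78. Nupr1, a small chromatin protein induced by stress, stood at 10.57, 8.77 and 9.01 against 10.06 to 10.26. Atf3, which is induced through ATF4, stood at 12.56 on replicate 1 and at 11.72 and 11.76 on the others, against 11.60 to 11.93, so its replicates 2 and 3 stayed within the CD133 low range. Not every target of this arm was laid out so: Chac1, a glutathione-degrading enzyme, stood at 9.51, 9.32 and 8.79 against 9.26 to 9.40, and Cebpb, a transcription factor, at 13.83, 13.84 and 13.87 against 13.46 to 13.62. The neutrophil markers Cxcr2, Ngp, S100a9 and Mmp8 had the layout of Ddit3. The chemokine receptor Cxcr2 stood at 10.45, 7.05 and 7.20 against 8.82 to 9.11, and the granule protein Ngp at 12.68, 10.81 and 10.54 against 11.81 to 12.16. The neutrophil markers S100a8, Csf3r, Mmp9 and Camp were not laid out so, with Csf3r at 12.61, 10.98 and 11.27 against 10.88 to 11.60. Cd68, Pecam1, Emcn, Vwf and Krt18, markers of other cell types, also had the layout of Ddit3. The part of neutrophils or of other cells in the values of these stress-induced genes was not tested. With all 6 arrays, Sesn2, Ero1a, Nupr1, Atf3, Chac1 and Cebpb all had an adjusted p above 0.05 in limma. Of these 6 genes Cebpb alone had an unadjusted p under 0.1 in limma, at 0.0813.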
